A study of Mus musculus with 2 samples.

Results

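The Hox-cluster microRNAs (miRNAs) miR-10 and miR-196 of the mouse are made from 5 genes, Mir10a, Mir10b, Mir196a-1, Mir196a-2 and Mir196b. Reads were assigned to them when a sequence of at least 16 nt lay exactly, on the sense strand, inside an annotated hairpin precursor of 1 of these genes. The 5 genes are 5 of the 2201 annotated miRNA genes searched. They held 163 of the 9259 distinct sequences that matched any hairpin. They also held 1476859 of 2523084 hairpin-matching reads in one library and 1491450 of 2561491 in the other, which is 58.5% and 58.2%.

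Small RNA was sequenced from fetal testes of C57BL/6 mice at embryonic day 16.5. There was 1 library from wild type (WT) fetuses and 1 from fetuses lacking Hsp90-alpha (KO). Each was made from 20 pooled whole testes obtained by natural mating, so a library averages over animals and mixes germ cells with somatic cells. How the KO allele was made is not given in the sources used here. By immunofluorescence the authors found HSP90α in germ cells only within the fetal testis. They found its paralog HSP90β in germ cells and somatic cells alike. No genotype had a second library, so no difference between the libraries had a replicate check. The intervals given here are 95% intervals that cover counting error at most. They treat reads as independent, but reads amplified by PCR without molecular identifiers are not independent molecules. The intervals can therefore be too narrow even for counting error. In such bulk samples, fewer cells of a type and less RNA per cell cannot be told apart.

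Hox genes encode transcription factors that set the identity of body regions along the head-to-tail axis, and they lie in clusters on different chromosomes. The miR-10 and miR-196 genes sit inside these clusters and are transcribed together with their Hox neighbours in the embryo. As for other miRNAs, Drosha and Dicer cut the hairpin into a 5p and a 3p strand, one of which is loaded into an Argonaute protein. Bases 2 to 8 of the loaded strand, the seed, choose the target mRNAs. Hox mRNAs themselves are known targets of both families, and miR-196 is known for cleaving the Hoxb8 mRNA.

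The hairpins were located in the mouse genome build GRCm38. Mir10a (chr11:96317165-96317274, plus strand) overlapped no other gene and lay between Hoxb5 and Hoxb4, 993 bases from Hoxb4. Mir10b (chr2:74726070-74726137, plus strand) lay in introns of Hoxd3 and Hoxd4. Mir196a-1 (chr11:96265164-96265265, plus strand) lay between Hoxb13 and Hoxb9, 6192 bases from Hoxb9. Mir196a-2 (chr15:102973350-102973434, plus strand) lay in an intron of Hoxc5, with Hoxc10 1457 bases to one side and Hoxc9 3005 bases to the other. Mir196b (chr6:52230081-52230165, minus strand) lay in an exon of the Hoxa9 transcripts Hoxa9-204 and Hoxa9-205, outside any coding part or UTR, with Hoxa10 1032 bases away.

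The mature 5p sequences below are those of RefSeq for GRCm38.p6, with the seed in capitals, and they are shown because a single base separates the members of each family. The 2 miR-196a genes give the same 5p sequence.
miR-10a-5p: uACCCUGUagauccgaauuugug
miR-10b-5p: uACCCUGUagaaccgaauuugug
miR-196a-5p: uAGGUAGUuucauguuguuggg
miR-196b-5p: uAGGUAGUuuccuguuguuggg
The seed was ACCCUGU for both miR-10 sequences and AGGUAGU for both miR-196 sequences. Counted from 1 at the 5′ end, miR-10a-5p differed from miR-10b-5p by U12A, with 22 of 23 bases identical. The change from miR-196a-5p to miR-196b-5p was A12C, with 21 of 22 bases identical.

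The members spanned more than 4 orders of magnitude in level, with miR-10b at the top of all miRNA genes. Levels are given as reads per 1000000 hairpin-matching reads (RPM), since the libraries differed in the share of such reads. That share was 39.4% of 6409305 reads in WT and 45.8% of 5589326 reads in KO. Mir10b had 1410287 reads in WT and 1415066 in KO, or 558954 and 552438 RPM. It ranked 1 among all miRNA genes and alone made up 55.9% and 55.2% of the hairpin-matching reads. Mir10a followed at rank 4 with 66179 and 76010 reads, or 26229 and 29674 RPM. A read inside more than 1 annotated miRNA gene was not given to a single gene, and this applied among the members only to Mir196a-1 and Mir196a-2, whose 5p strands are the same. Together these 2 genes had 301 reads in WT and 276 in KO, or 119 and 108 RPM. Mir196b had 92 and 98 reads, or 36.5 and 38.3 RPM, and ranked 174. Of the reads of the Mir196a genes, 183 in WT and 172 in KO could come from either gene, 93 and 82 were specific to Mir196a-2 (rank 180), and 25 and 22 were specific to Mir196a-1 (rank 245). The order of the members was therefore Mir10b, Mir10a, miR-196a and Mir196b in both libraries. Ranks rest on reads inside a single gene, 2278752 of the 2523084 hairpin-matching reads in WT and 2304101 of 2561491 in KO. Genes with identical copies elsewhere can therefore rank too low, so the ranks after 1 hold by this count only.

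**Figure D1:**
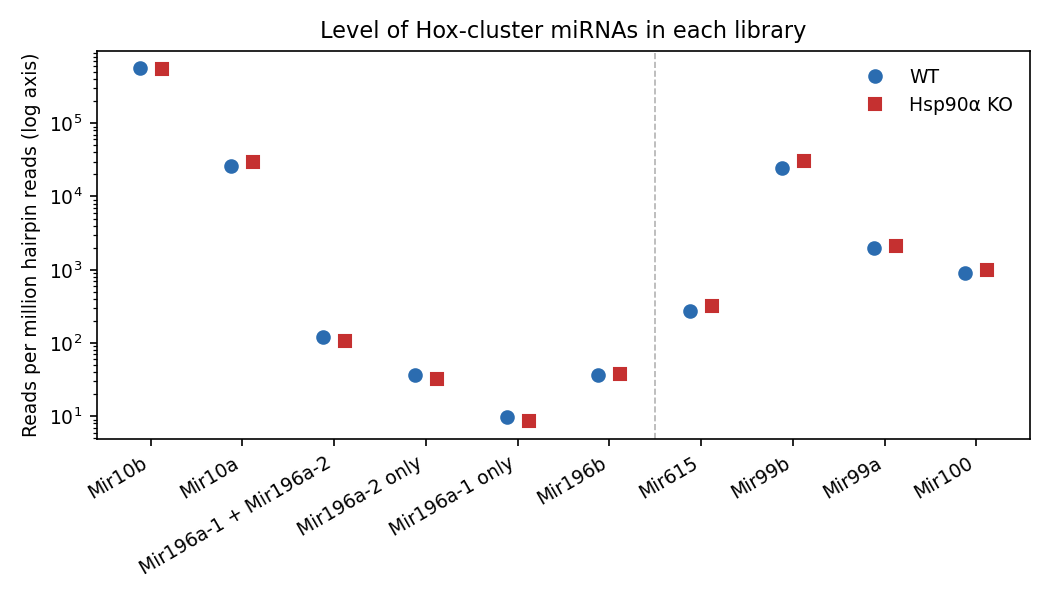
Level of each member in the WT library (circles) and the KO library (squares), in RPM on a log axis, with Mir615, Mir99b, Mir99a and Mir100 to the right of the dashed line. Mir10b lies at 558954 and 552438, while the Mir196 genes lie at 119 or below, and the symbols of both libraries nearly coincide for every gene.

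HSP90 proteins are chaperones known to help load small RNAs into Argonaute proteins, and the libraries were compared to ask how the members stood in testes without HSP90α. Mir10b gave a KO/WT ratio of RPM values of 0.988 (Clopper-Pearson interval 0.986 to 0.991). Its high count makes the interval narrow. Mir10b is itself 55.9% and 55.2% of the reads it is divided by, which pulls its ratio toward 1. Per hairpin-matching read without Mir10b the ratio was 0.974 (0.972 to 0.976). Per deposited read of 20 to 23 nt it was 0.997 (0.995 to 0.9997). With all deposited reads as the total it was 1.15 (1.15 to 1.15). The direction of this small difference therefore depended on the normalizing total. Mir10a gave 1.13 (1.12 to 1.14), and its interval did not overlap that of Mir10b. Its ratio was above 1 by each of these totals, from 1.11 without Mir10b to 1.32 with all deposited reads. The ratio of the Mir196a genes together was 0.903 (0.764 to 1.07). For Mir196b it was 1.05 (0.781 to 1.41). Reads specific to Mir196a-1 gave 0.867 (0.466 to 1.60) and those specific to Mir196a-2 gave 0.869 (0.637 to 1.18). None of the Mir196 intervals left out 1, so a difference was not detectable at these counts, although the interval of Mir196a-1 also leaves room for a difference of more than 1.5-fold either way.

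Of the 5 members, 4 had at least 100 gene-specific reads in both libraries together. Of these 4, 0 differed by 1.5-fold in either direction. Among the 205 miRNA genes with at least 100 such reads, 0 (0%) were higher by 1.5-fold in KO and 4 (1.95%) were lower. A count of 0 members is thus close to this background. The median ratio over these 205 genes was 0.981, with quartiles of 0.893 and 1.08. The ratio of Mir10a was higher than that of 169 of the 205 genes and lower than that of 35. That of Mir10b was higher than 108 and lower than 96. Mir615, the remaining miRNA of the Hox clusters, lies in an intron of Hoxc5 and had 698 and 830 reads, with a ratio of 1.17 (1.06 to 1.30). The Mir99 and Mir100 genes, whose mature sequences resemble miR-10, also had ratios above 1. They were 1.23 for Mir99b (1.21 to 1.24), 1.07 for Mir99a (1.03 to 1.12) and 1.12 for Mir100 (1.05 to 1.18).

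**Figure D2:**
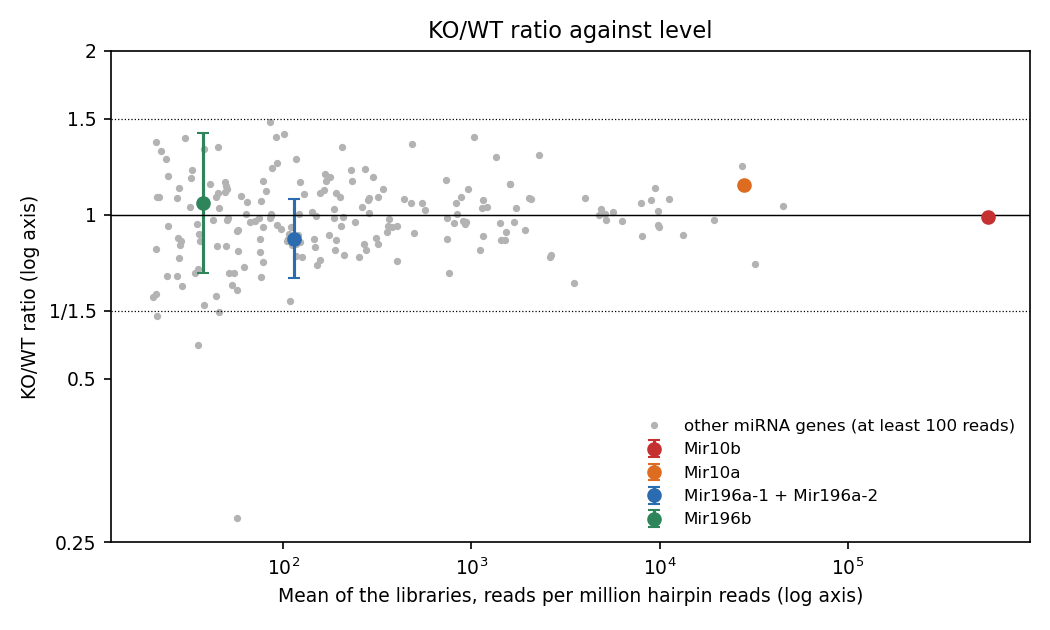
KO/WT ratio against the mean level of the libraries for the miRNA genes with at least 100 reads, both on log axes, with 95% counting intervals for Mir10b, Mir10a, the Mir196a genes together and Mir196b. The solid line marks a ratio of 1 and the dotted lines mark 1.5-fold; all 4 coloured points lie between the dotted lines, Mir10a at 1.13 and Mir10b at 0.988.

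The genes next to the members in the order of gene-specific levels gave a scale for these ratios. Mir127, directly below Mir10b, had 112455 and 118542 reads and a ratio of 1.04 (1.03 to 1.05). Mir143, directly above Mir10a and a miRNA of smooth muscle and other mesenchyme, had 89553 and 73755 reads and 0.811 (0.803 to 0.819). Mir99b was directly below Mir10a. Around Mir196b, mmu-mir-3535 had a ratio of 0.683 (0.506 to 0.917) and Mir195a 0.893 (0.660 to 1.21). Around Mir196a-2, Mir487b had 0.963 (0.710 to 1.31) and Mir1981 0.780 (0.569 to 1.06). Around Mir196a-1, Mir150 had 0.796 (0.426 to 1.47) and Mir218-1 0.867 (0.466 to 1.60).

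Markers of the cell types in a fetal testis also differed between the libraries. The 6 germ cell markers, the miR-290 cluster, summed to 795 RPM in WT and 1031 RPM in KO, a ratio of 1.30 (1.22 to 1.38), and all 6 had ratios above 1. Mir202, a miRNA of gonadal support cells, had 1996 and 2134 RPM, a ratio of 1.07 (1.03 to 1.11). The 5 mesenchyme markers summed to 36794 and 30019 RPM, a ratio of 0.816 (0.808 to 0.824). Mir143 held 89553 of the 92834 WT reads and 73755 of the 76893 KO reads of this list, so the sum mostly gives its ratio of 0.811. Mir145a had 0.882 (0.799 to 0.974), while Mir199a-2 with 0.954 (0.660 to 1.38) and Mir214 with 0.963 (0.909 to 1.02) had intervals that held 1. Mir199a-1, counted without reads shared with other miRNA genes, had 0 reads in WT and 1 in KO. The 3 blood markers summed to 317 and 261 RPM, a ratio of 0.824 (0.742 to 0.914), and 0 of 3 were above 1. Mir199a-1 was the only marker of these lists at 0 in a library. The part of these differences in the ratios of the members was not tested. The targeted gene could not be checked in small RNA, since Hsp90aa1, which encodes HSP90α, matched 2 fragments in WT and 10 in KO and the deleted part of the gene is not given in the sources used here.

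Nearly all miR-10 reads came from the 5p strand in both libraries. Mir10b had 1410115 5p reads in WT and 1414835 in KO, against 172 and 231 3p reads, so that 8198 and 6125 reads of 5p stood for each read of 3p. The 3p reads gave a KO/WT ratio of 1.32 (1.08 to 1.62), and their interval did not overlap that of the 5p reads. Mir10a had 66167 and 75987 5p reads and 12 and 23 3p reads, with a ratio for 3p of 1.89 (0.902 to 4.16). Its 3p interval held the ratio of its 5p strand, 1.13. The 3p strands of the miR-10 genes differed by A3G, U9A and A10U, so that the first change lies in the seed. No read lay mostly in the loop or the flanks of either miR-10 hairpin. The annotated Mir10b hairpin leaves little room for one at the 16-nt minimum. It has 68 bases, with 5p at bases 5 to 27, 3p at bases 45 to 66 and a loop of 17 bases.
miR-10a-3p: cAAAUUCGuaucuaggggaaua
miR-10b-3p: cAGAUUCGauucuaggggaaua
The 3p reads of Mir10b had no single main start. In WT 60 began 1 base before the annotated base, 53 at it and 59 at the next, and in KO the counts were 91, 55 and 84. The miR-196 genes were less one-sided where a 3p strand was read at all. The Mir196a genes had 277 and 255 5p reads and 24 and 20 3p reads, or 11.5 and 12.8 per 3p read, and 1 KO read from the loop or flank. Mir196b had 92 and 98 5p reads and no 3p read, which allows a 3p share of up to 4.01% in WT and 3.77% in KO by the upper Wilson bound. No antisense read fell in any of the 5 hairpins, and 3 reads would have been 1.19 RPM in WT and 1.17 in KO.

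The start of a 5p read sets the seed, and the miR-10 genes used 2 starts. Of the Mir10b 5p reads, 83.8% began at the annotated base in WT (Wilson interval 83.7 to 83.8) and 83.3% in KO (83.2 to 83.3). A further 16.1% (16.1 to 16.2) and 16.6% (16.6 to 16.7) began 1 base downstream. These reads lacked the first uridine and carried the seed CCCUGUA. Their intervals did not overlap between the libraries, though the shift was only 0.488 percentage points. For Mir10a the shares were 72.0% (71.6 to 72.3) and 72.4% (72.1 to 72.7) at the annotated base. The base downstream took 26.2% (25.9 to 26.6) and 26.0% (25.7 to 26.3), and here the intervals of the libraries overlapped. The miR-10 genes therefore differed from each other far more than the libraries did. Starts 1 base upstream separated them as well, with 980 and 1003 reads of Mir10a, or 1.48% and 1.32%, against 32 and 30 reads of the much more abundant Mir10b, or 0.00227% and 0.00212%. The Mir196 genes showed almost no shifted start. For miR-196a 98.9% (96.9 to 99.6) of WT and 98.4% (96.0 to 99.4) of KO 5p reads began at the annotated base, and for Mir196b all 92 and 98 did.

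The most frequent sequence of each start is shown for Mir10b, with the seed of that sequence in capitals.
annotated start, 22 nt: uACCCUGUagaaccgaauuugu
next base, 23 nt: aCCCUGUAgaaccgaauuugugu
The first was read 995541 times in WT and 986106 times in KO, a ratio of 0.976 (0.973 to 0.978). It is 1 base shorter than the annotated mature sequence at its 3′ end. The second had 117804 and 125454 reads and a ratio of 1.05 (1.04 to 1.06). The annotated 23-nt sequence itself had 76450 and 77284 reads, only rank 4 among the Mir10b sequences, and a ratio of 0.996 (0.986 to 1.01). The sequence that extends 1 base past the annotated end, 24 nt from the annotated start, had 84777 and 91436 reads and a ratio of 1.06 (1.05 to 1.07). For Mir10a the 22-nt sequence from the annotated start was also first, with 37261 and 43378 reads and a ratio of 1.15 (1.13 to 1.16). The next 3 of Mir10a all began at the base downstream and had 5831, 5940 and 4808 reads in WT and 6762, 6646 and 5533 in KO.

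Across 57 miRNA strands with at least 1000 reads in each library, the share of reads that began 1 base downstream had a median of 0.291% in WT and 0.293% in KO. It was higher than that of miR-10a-5p for 3 of these strands, with miR-140-3p the highest at 74.3% in WT. It was higher than that of miR-10b-5p for 7. In KO these counts were also 3 and 7. The KO minus WT difference of miR-10b-5p, 0.488 percentage points, was exceeded by 5 strands. That of miR-10a-5p was -0.231, with 1 strand lower, and the median was 0.0362. In either direction, 6 strands moved more than miR-10b-5p and 9 more than miR-10a-5p. The range over all 57 strands ran from -1.53 to 2.28, and both miR-10 differences lay inside it. The ends of that range came from strands with 3772 and 2443 WT reads, far fewer than the miR-10 strands had. The upper end was miR-6240, also 1 of the 3 strands above miR-10a-5p. Only 0.0409% of its WT reads began at the annotated base, and their mean length was 17.2 nt. The 5 strands that exceeded miR-10b-5p had 1033 to 2669 WT reads. Their counting error is larger, so this range cannot place a shift as small as that of miR-10b-5p.

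**Figure D3:**
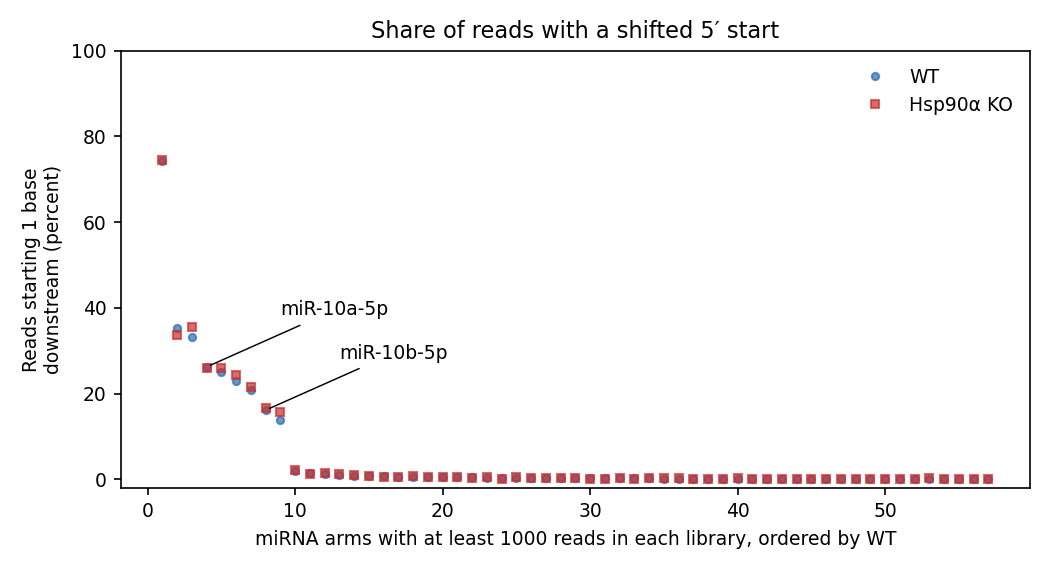
Percent of reads beginning 1 base downstream of the annotated start for 57 miRNA strands with at least 1000 reads in each library, ordered by the WT value, with WT as circles and KO as squares. miR-10a-5p (26.2% and 26.0%) and miR-10b-5p (16.1% and 16.6%) belong to the few strands well above the median of 0.291%.

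The 3′ end of the miR-10 reads varied with their 5′ start. Among Mir10b reads from the annotated start, 7.18% (7.14 to 7.23) in WT and 7.76% (7.72 to 7.81) in KO ran past the annotated end. Among those that began 1 base downstream, 51.9% (51.6 to 52.1) and 53.4% (53.2 to 53.6) did. Mir10a showed the same order with a smaller gap, 8.56% (8.31 to 8.82) and 8.71% (8.48 to 8.95) against 27.9% (27.2 to 28.6) and 28.2% (27.5 to 28.8). Reads with the later start thus ended later in both genes and in both libraries. For Mir10b the share past the annotated end was higher in KO within each start class, with intervals that did not overlap. For Mir10a the intervals of the libraries overlapped within each class.

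**Figure D4:**
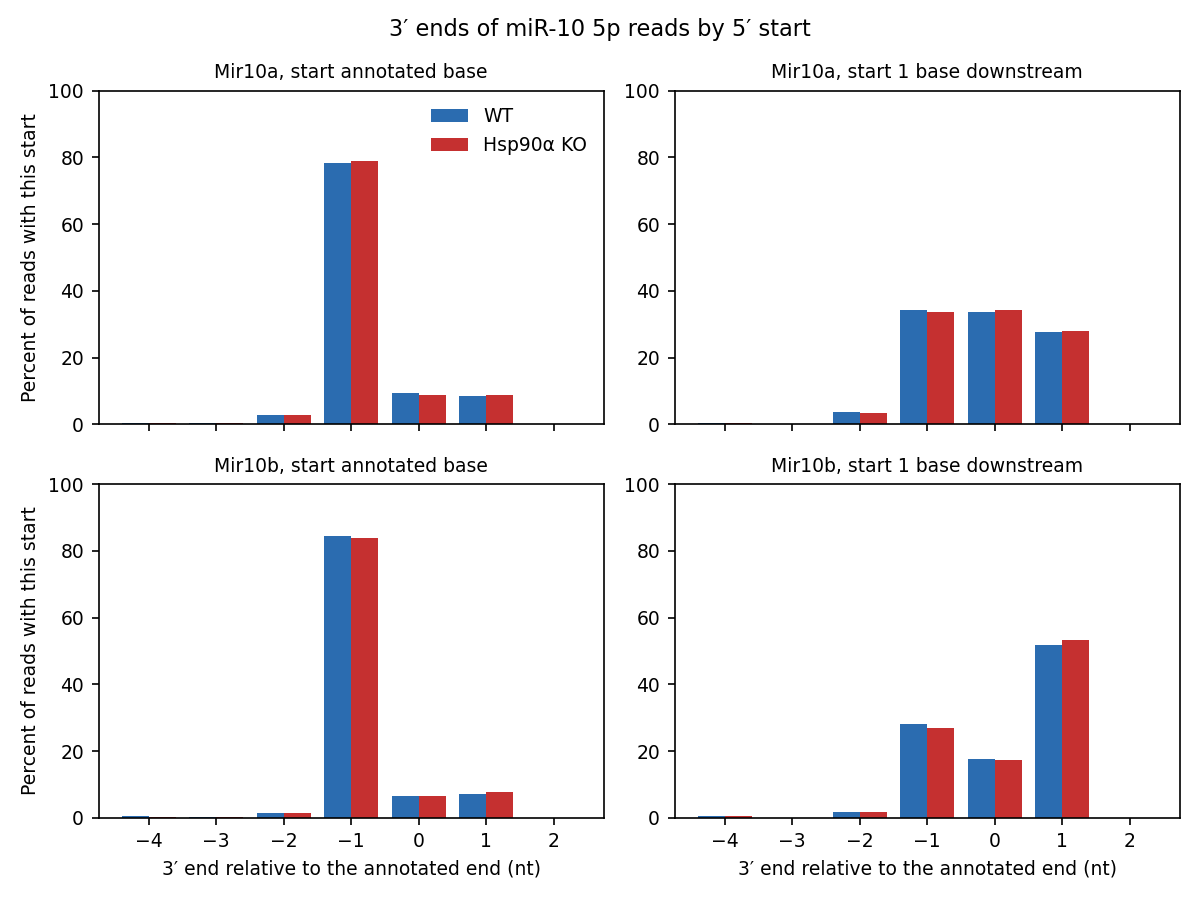
Percent of reads by 3′ end, in nt relative to the annotated end, for Mir10a (top) and Mir10b (bottom) 5p reads that begin at the annotated base (left) or 1 base downstream (right), with WT and KO bars side by side. Reads from the annotated base mostly end 1 nt before the annotated end, while 51.9% of WT and 53.4% of KO Mir10b reads with the later start end past it.

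Lengths followed from these starts and ends. The most frequent length of Mir10b 5p reads was 22 nt, with 73.4% (73.4 to 73.5) in WT and 72.6% (72.5 to 72.7) in KO. Reads of 23 nt made up 13.8% (13.7 to 13.8) and 14.3% (14.3 to 14.4), and those of 24 nt 6.02% (5.98 to 6.06) and 6.47% (6.43 to 6.51). The mean length was 22.17 and 22.19 nt. Of the 57 abundant strands 28 had a larger change of mean length in either direction. The strands other than miR-10b-5p had at most 112087 WT reads, so their means carry more counting error. That count of strands therefore cannot place so small a change. For Mir10a 65.5% (65.1 to 65.8) and 66.3% (65.9 to 66.6) were 22 nt and 15.1% (14.9 to 15.4) and 14.7% (14.5 to 15.0) were 23 nt, with a mean of 22.12 nt in both libraries.

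A few Mir10b reads were much longer than a mature miRNA. There were 23 reads of 31 to 41 nt in WT and 5 in KO, a ratio of 0.214 (0.0636 to 0.576). Of these, 19 and 4 ended 15 to 18 bases past the annotated 5p end, where the annotated loop between the strands is 17 bases long, so they spanned the 5p strand and about the whole loop. They began at the annotated base in 14 and 2 cases and 1 base downstream in 8 and 3. Mir10a had 1 such 5p read of 30 nt or more, in KO. The Mir196 genes had no such 5p read, but 1 WT read of 38 nt from Mir196a-1 began 16 bases before the annotated 3p start and spanned the loop and the 3p strand. This is a small count beside the 1410115 and 1414835 5p reads of Mir10b. Reads of this length were not compared over all hairpins, so the ratio cannot be called particular to Mir10b.

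For the miR-196 genes the annotated 22-nt 5p sequence was the most frequent, in contrast to miR-10. It had 134 reads in WT and 128 in KO for miR-196a and 52 and 54 for Mir196b. Reads of 22 nt made up 49.5% (43.6 to 55.3) and 51.4% (45.3 to 57.4) of miR-196a and 56.5% (46.3 to 66.2) and 55.1% (45.2 to 64.6) of Mir196b. Reads of 23 nt made up 27.4% (22.5 to 33.0) and 25.1% (20.2 to 30.8) of miR-196a and 28.3% (20.1 to 38.2) and 24.5% (17.0 to 33.9) of Mir196b. All these intervals overlapped between the libraries.

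The strands told the Mir196a genes apart in different ways. For Mir196a-2, 90 and 77 specific reads came from the 5p strand and 3 and 5 from 3p. For Mir196a-1, 4 and 6 came from 5p and 21 and 15 from 3p. A 5p read becomes specific by passing the annotated end or by starting upstream of the annotated base, as 1 KO read of Mir196a-1 did. At the annotated end the next base of the hairpin is C in Mir196a-1 and A in Mir196a-2 and Mir196b. A 5p read with an adenosine added after transcription would be counted as Mir196a-2, and among the 75 and 60 reads of 23 nt given to Mir196a-2 such reads cannot be told apart. The 3p strands have different sequences and are not affected by this.

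Untemplated 3′ tails were counted as 1 to 3 bases that do not continue the hairpin, after at least 18 matching bases from the annotated start or the next base. Such reads are not in the counts above, and a sequencing error in the last bases looks the same as a tail. Of the matched and tailed 5p reads of Mir10a, 7.30% (7.11 to 7.50) in WT and 6.97% (6.80 to 7.15) in KO had a tail, and 5.61% and 5.46% had a single adenosine. For Mir10b 4.28% (4.25 to 4.31) and 4.39% (4.35 to 4.42) had a tail, with a single adenosine in 2.64% and 2.71%. The miR-196 sequences had larger shares, and there a single uridine was the most frequent tail counted. For miR-196a 130 reads in WT and 166 in KO had a tail, or 32.0% (27.7 to 36.7) and 39.5% (35.0 to 44.3). A single uridine made up 18.2% (14.8 to 22.3) and 24.0% (20.2 to 28.4). For Mir196b the tailed share was 27.6% (20.5 to 35.9) and 31.5% (24.4 to 39.5), with a single uridine in 15.7% (10.4 to 23.1) and 20.3% (14.5 to 27.6). The template decides which added bases could be counted as tails. An adenosine added at the annotated end of Mir196a-2 or Mir196b continues the hairpin and was counted as matched, among 75 and 60 reads of 23 nt for Mir196a-2 and 26 and 24 for Mir196b. A uridine added at the annotated end of miR-10 was hidden in the same way, so the balance of adenosine and uridine cannot be compared between the families. The intervals of the tailed share of miR-196 did not overlap those of miR-10 in either library. Between the libraries those of miR-196a and of Mir196b overlapped. When 1 mismatch to the hairpin was allowed, which brings in 1-base tails, the KO/WT ratio of miR-196a was 1.02 (0.894 to 1.17).

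**Figure D5:**
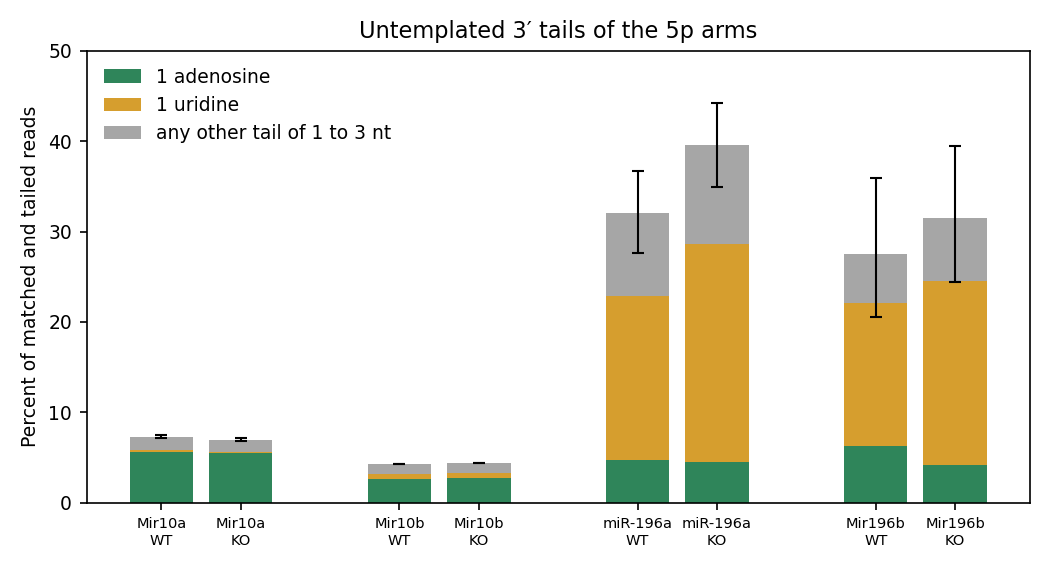
Percent of matched and tailed 5p reads that carry an untemplated 3′ tail, by library, with stacked parts for a single adenosine, a single uridine and any other tail of 1 to 3 nt and with 95% Wilson intervals of the total as bars. The miR-10 bars reach 4.28% to 7.30% and hold mostly adenosine, while the miR-196 bars reach 27.6% to 39.5% and hold mostly uridine; bases that continue the hairpin are not counted as tails.

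Since miR-10a-5p and miR-10b-5p differ at base 12 only, misread miR-10b could be counted as miR-10a. The change that would do this in a 22-nt miR-10b read is A12U. At the other 5 adenosines of that sequence the same change gave at most 71 reads in each library, which is 0.191% of the 37261 WT and 0.164% of the 43378 KO reads of the 22-nt miR-10a sequence. The other bases at position 12 gave at most 81 and 74 reads. Of the 12 kinds of change in the 22-nt miR-10b sequence, 5 had KO/WT intervals that left out 1. C-to-A changes differed most and had 2202 reads in WT and 892 in KO, or 22.1 and 9.05 for every 10000 exact reads, a ratio of 0.409 (0.378 to 0.442). The others were G-to-A with 0.793 (0.676 to 0.931), U-to-A with 1.28 (1.19 to 1.37), U-to-C with 1.11 (1.02 to 1.21) and U-to-G with 1.12 (1.04 to 1.20). The changes of U include the last base of the sequence, where a change looks the same as an untemplated 1-base tail. There U22A alone gave 995 of the 1316 U-to-A reads in WT and 1292 of the 1665 in KO. The last base also held most U-to-G reads and part of the U-to-C reads. The ratios of these U classes therefore cannot separate misreading from tails. All reads with a changed base were left out of the exact counts.

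The Hox genes themselves were read for fragments and for letters that pair with the seeds. Of 39 Hox genes 13 had at least 1 gene-specific sense read of 18 nt or more, with 23 reads in each library in all, so their levels cannot be compared. Hoxd8 had the most, 10 in WT and 9 in KO. Among the hosts and neighbours, Hoxd4 had 1 and 1, Hoxc5 1 and 2, Hoxc9 1 and 0, Hoxa7 0 and 2, and Hoxd3, Hoxa9, Hoxa10, Hoxb4, Hoxb5, Hoxb9, Hoxb13 and Hoxc10 had none. The 3′ UTR of each gene, the longest one annotated, was searched on the sense strand for the DNA letters that pair with a seed. The letters TACAGGG, for the seed of the later miR-10 start, were in 2 of 39 Hox genes (5.13%), Hoxa11 and Hoxc5, and in 7.70% of 21020 protein-coding genes. The letters ACTACCT, for the miR-196 seed, were in 9 of 39 (23.1%) and in 6.10% of all genes, with 0.340 against 0.0455 matches per 1000 bases of 3′ UTR. The median 3′ UTR was 966 nt for Hox genes and 961 nt for all, and a match of letters is a description and not evidence of binding.

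Hoxb8 was not among the 9 because its site holds 1 G:U pair in the seed. The best-paired stretch for miR-196a in its 845-nt 3′ UTR lay at bases 418 to 439, at chr11:96284888-96284909 on the plus strand of GRCm38, within the last exon. It is shown because it is the textbook cleavage target, with the letters opposite the seed in capitals.
Hoxb8 site: cccaacaacaugaaACUGCCUa
Of 22 bases 21 paired with miR-196a, with the G:U pair at base 5 of the miRNA not counted, and 20 paired with miR-196b, whose base 12 is the other one unpaired. Hoxb8 had 2 fragments in WT and 0 in KO. Of the WT fragments 1 lay in the 3′ UTR, from base 667, and none began within the site, so at these counts the libraries show nothing of cleavage there.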

How the data were processed

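Small RNA of WT and Hsp90-alpha KO testes was analysed from 2 tables, 1 for each genotype. The authors isolated RNA with Isogen, prepared TruSeq Small RNA libraries, sequenced them on a MiSeq, clipped the adaptor and deposited raw counts of each distinct sequence, 11 to 48 nt long. The clipping tool is not given in the sources used here. The labels name mm9; since no genome was used, sequences were matched exactly to the 2202 miRNA hairpins of GENCODE M21 (GRCm38). Counts were divided by the hairpin-matching reads of 16 nt or more (2523084 in WT, 2561491 in KO).

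Ratios carry exact conditional Clopper-Pearson intervals and shares Wilson intervals, with no p-values. Both were tested only on simulated independent counts, which leave out PCR copies and variation between libraries. RefSeq sequences (GRCm38.p6) were found for all 5 members. The marker genes listed as Mir292a and Mir486a are named Mir292 and Mir486 in the annotation. Named genes were the members, Mir615, Mir99a, Mir99b, Mir100, the next miRNA above and below each member, Hsp90aa1 and host, neighbouring or textbook target Hox genes. Hox genes named for a seed match or for the most reads, and miR-140-3p and miR-6240, were added after their values were seen. Matches to the seed of the annotated miR-10 start are not reported here. The members and lists were chosen with earlier results of these data known. Alternatives covered the normalizing total, shared sequences, length, read minimum, distinct sequences, mismatches and strand. Python 3.11.15, numpy 2.4.6, scipy 1.17.1 and matplotlib 3.10.9 were used.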

Additional observations from a re-analysis of the deposited data

How the results depend on the processing

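Of 75 alternative values, 68 kept their direction and their side of the threshold. Per deposited read, the KO/WT ratio was reversed for Mir10b, at 1.15 (interval 1.15 to 1.15), and for miR-196a, at 1.05 (0.890 to 1.24). The share of hairpin-matching reads differs between the libraries, which by construction moves every such ratio up by the same factor. With each distinct sequence counted once, the ratio was 1.35 (0.875 to 2.08) for Mir10a and 0.987 (0.691 to 1.41) for Mir10b, intervals that no longer left out 1 because few sequences were counted. It was 1.12 (0.578 to 2.18) for miR-196a and 1.65 (0.452 to 6.61) for Mir196b, which has few distinct sequences. With up to 1 mismatch the ratio of miR-196a was 1.02 (0.894 to 1.17). Its KO minus WT difference in the annotated start share was 0.296 percentage points with sequences read at least 2 times, against -0.486. Neither ratio nor share of miR-196a passed the threshold under any of these settings. No paired analysis was possible because each genotype had 1 library. For the same reason no library could be left out. Depth limits the Mir196 genes, whose ratio intervals were the widest. For Mir10b the counting interval is narrow, but variation between libraries of 1 genotype was not measured.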
